A study of Mus musculus with 12 samples.

Results

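Border macrophages are the resident macrophages of the tissues that surround the brain, and 10 genes that mark them or macrophages in general were described here. They were found by symbol alone, with no measured value in the rule, and were Csf1r, Adgre1, Tyrobp, Mrc1, Cd163, Cd68, Lyz2, Pf4, Aif1 and Ms4a7. All 10 were among the 23238 gene symbols measured, all 10 had reads in every one of the 12 libraries, and all 10 passed the filter on low values that 11955 genes passed. The study profiled RNA from cells of the mouse meninges, the membranes around the brain, that had been enriched with magnetic beads as meningeal lymphatic endothelial cells. Its title concerns raised DSCR1, lymphatic drainage of the dura and amyloid pathology. The labels give 3 groups of 4 libraries by title, AD_TG, AD_B6 and SJL_B6, all from meninges of C57BL/6 mice at 20 weeks of age, and they do not spell these titles out or name an allele or transgene. AD_TG and AD_B6 share the AD part of the title and differ in the other part, AD_B6 and SJL_B6 share B6 and differ in AD against SJL, and AD_TG and SJL_B6 differ in both. Cells came from 3 to 4 mice of each strain. Whether 1 library stands for 1 mouse is not stated in the labels, and the p-values therefore reflect variation among these libraries alone, which may be technical.

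Border macrophages live in the dura, along the leptomeninges and blood vessels and in the choroid plexus. They depend on signalling through the CSF1 receptor, take up proteins and debris from the surrounding fluid, and stand beside lymph vessels in the dura. In the mouse they carry Mrc1, Cd163, Pf4 and Ms4a7, which separate them from microglia inside the brain, whereas Csf1r, Adgre1, Aif1, Tyrobp and Cd68 are shared with other macrophages. Lyve1, often used to mark lymphatic endothelium, is also carried by a subset of border macrophages.

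Values are the deposited log2(x + 1) values of scaled amounts, which are not divided by transcript length. Differences were tested between libraries and not between genes, and shares of the linear total add the amounts of genes as listed. Each library held an estimated 4014470 to 9312118 assigned reads and between 8748 and 12217 genes with reads. In 5 libraries (2 of AD_TG, 1 of AD_B6 and 2 of SJL_B6) genes without reads are listed at small values above 0, and in the other 7 at 0. Those 5 held an estimated 4014470 to 6636189 reads and the other 7 held 6764455 to 9312118. The way of listing and depth therefore cannot be told apart. The defining marker of the labelled cell type, Prox1, the transcription factor that sets lymphatic endothelial identity, had reads in 0 of 4 AD_TG libraries, 0 of 4 AD_B6 libraries and 2 of 4 SJL_B6 libraries. Flt4, the receptor for VEGF-C on lymphatic endothelium, had reads in 3 AD_TG, 1 AD_B6 and 2 SJL_B6 libraries. The 10 macrophage genes together took 0.164 to 0.311% of the linear total in AD_TG, 0.135 to 0.341% in AD_B6 and 0.191 to 0.384% in SJL_B6. A list of 10 lymphatic endothelial genes took 0.0209 to 0.0553% over the 12 libraries. In such bulk samples, fewer macrophages and less macrophage RNA per cell cannot be told apart.

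Of the 10 genes, none differed between groups at an adjusted p below 0.05 in any of the 3 comparisons (limma, Benjamini-Hochberg over 11955 genes), and the share of all genes tested that did so was 0% in AD_TG against AD_B6, 0% in AD_B6 against SJL_B6 and 0% in AD_TG against SJL_B6. At an unadjusted p below 0.05, limma gave 5.35%, 5.41% and 2.99% of all genes tested in these comparisons, in that order, and 0, 1 and 0 of the 10. The 1 was Csf1r, lower in AD_B6 than in SJL_B6, a direction in which 4.05% of all genes tested had an unadjusted p below 0.05. The mean was higher in AD_TG than in AD_B6 for 9 of the 10 genes and lower in AD_B6 than in SJL_B6 for 8 of the 10, while 6 of the 10 were lower in AD_TG than in SJL_B6. The shares of all genes tested with a mean in the same direction were 62.8%, 59.8% and 46.7%. These comparisons share libraries pairwise, so their counts are not independent of each other.

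**Figure D1:**
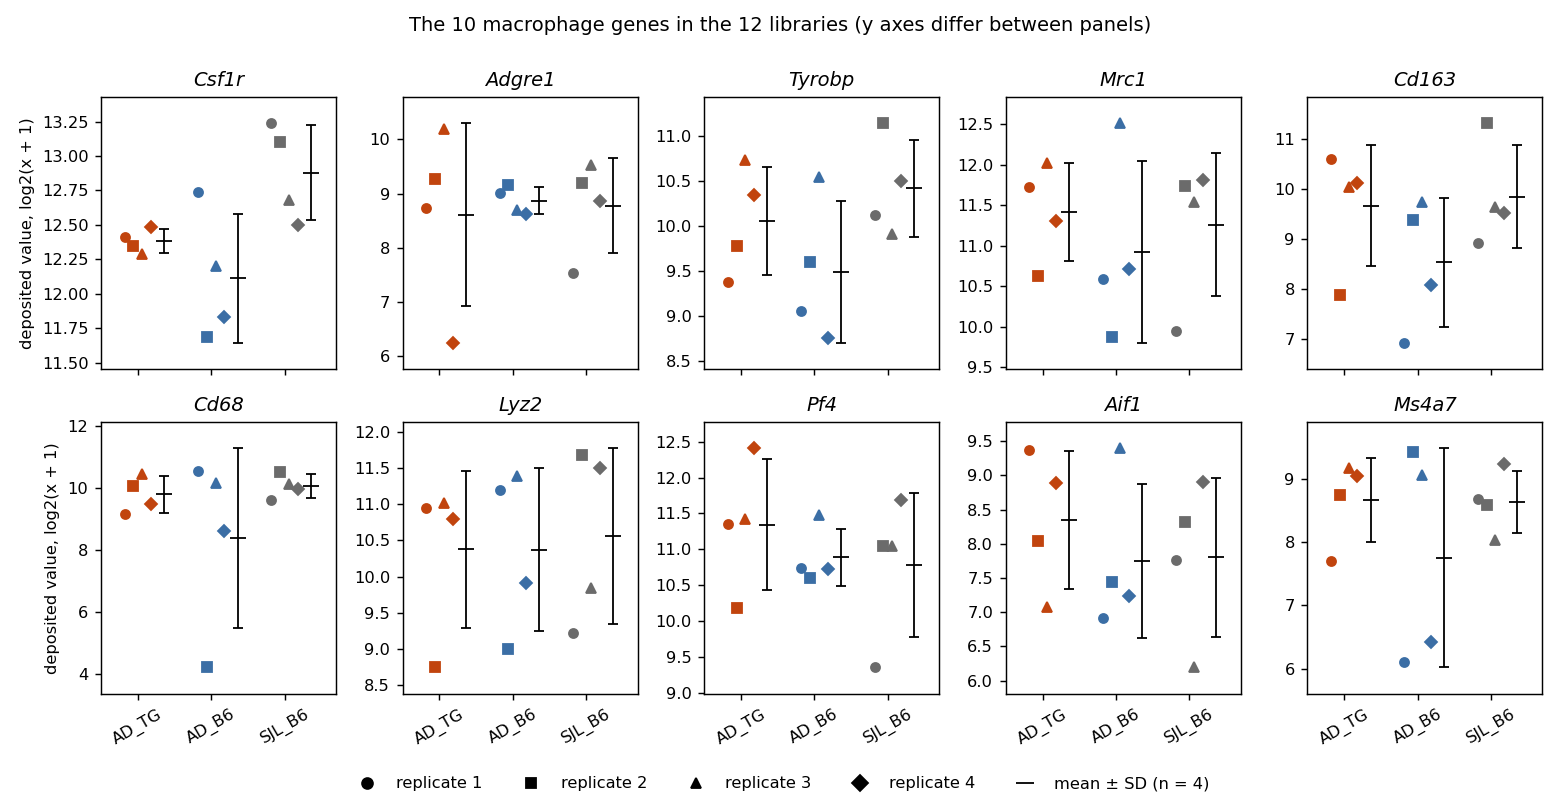
Deposited value, log2(x + 1), on the y axis of each of the 10 genes in the 12 libraries, with 1 symbol per replicate and the mean ± SD (n = 4) to the right of each group; groups run AD_TG, AD_B6, SJL_B6 and the y axes differ between panels. Csf1r spans 12.29 to 12.49 in AD_TG, below all 4 SJL_B6 libraries, and Cd68 has 1 AD_B6 library at 4.21 with the other 3 at 8.62 or above.

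The receptor of the growth factor that macrophages depend on was the steadiest of the genes. Csf1r, a receptor tyrosine kinase on chromosome 18 that binds CSF1 and IL-34, had log2 values of 12.41, 12.35, 12.29 and 12.49 in the AD_TG libraries, 12.74, 11.69, 12.20 and 11.83 in the AD_B6 libraries, and 13.24, 13.10, 12.68 and 12.50 in the SJL_B6 libraries. Every AD_TG library lay below every SJL_B6 library, the closest pair being 12.49 in AD_TG and 12.50 in SJL_B6, and 3 of 4 AD_B6 libraries lay below all of SJL_B6. Of all genes tested, 1.07% had AD_TG wholly below SJL_B6, and 2.53% did not overlap in either direction. Csf1r was the 1 gene of the 10 whose groups did not overlap in that comparison, and 0 of the 10 were so in AD_TG against AD_B6 or in AD_B6 against SJL_B6, where 2.88% and 2.82% of all genes did not overlap. The group means were 12.38 ± 0.09 in AD_TG, 12.11 ± 0.47 in AD_B6 and 12.88 ± 0.35 in SJL_B6 (SD, n = 4).

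Relative to SJL_B6, Csf1r was lower in AD_B6 by a log2 difference of -0.77 (SE 0.28, 95% interval -1.35 to -0.18), a 1.70-fold lower amount, with an unadjusted p of 0.0120 and an adjusted p of 0.869 in limma. Leaving out any 1 of the 8 libraries gave -0.97 to -0.62, with unadjusted p between 0.00313 and 0.0487 in limma. It was -0.59 with only the 7 libraries that list zeros and -1.13 with only the other 5, and limma's unadjusted p was then 0.154 and 0.0576. Among those 5, AD_B6 has 1 library, which is assumed to vary like the other groups. In AD_TG it was lower than in SJL_B6 by -0.50 (SE 0.28; limma adjusted p 0.999), and it was higher than in AD_B6 by 0.27 (SE 0.28; limma adjusted p 0.908), or by 0.13, 0.18 and 0.48 without AD_B6 replicates 2, 4 and 1. The order of the means was therefore SJL_B6, AD_TG, AD_B6, in which neither pair of neighbours differed past the adjusted threshold. Over the 12 libraries Csf1r had an SD of 0.45, the smallest of the 10, and 19.6% of 967 genes whose mean was 10 or higher had a smaller one. The gene overlaps Hmgxb3 on the opposite strand. Hmgxb3 itself had reads in 9 libraries and reached at most 8.87, and the use of strand in counting is not given in the sources used here, so reads of the overlap cannot be told apart.

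The ligands of this receptor were not found in every library. Csf1, the main ligand, had 6.80, 8.43, 9.93 and 7.42 in AD_TG, 4.61, 0.00, 9.33 and 6.05 in AD_B6, and 5.63, 6.37, 7.80 and 8.91 in SJL_B6. Il34, the other ligand, had reads in 3 AD_TG, 1 AD_B6 and 2 SJL_B6 libraries. Spi1, which encodes the myeloid transcription factor PU.1, averaged 9.03 ± 0.53 in AD_TG, 7.95 ± 1.85 in AD_B6 and 8.80 ± 0.50 in SJL_B6 (SD, n = 4). Of a list of 10 such genes, 9 were tested and 0 passed the adjusted threshold in any comparison. Their means were higher in AD_TG than in AD_B6 for 8, lower in AD_B6 than in SJL_B6 for 8 and higher in AD_TG than in SJL_B6 for 7, against 62.8%, 59.8% and 53.3% of all genes tested.

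Tyrobp and Adgre1 encode further proteins of the macrophage surface. Tyrobp encodes the membrane adaptor through which TREM2 and related receptors signal (chr7:30413760-30417585 of GRCm38, plus strand). Tyrobp had 9.38, 9.78, 10.74 and 10.34 in AD_TG, 9.06, 9.61, 10.54 and 8.76 in AD_B6, and 10.12, 11.14, 9.91 and 10.50 in SJL_B6. AD_B6 had 3 of its 4 libraries below all of SJL_B6 and replicate 3 within their range. The log2 difference was -0.93 in AD_B6 against SJL_B6 (SE 0.54; limma unadjusted p 0.0983, adjusted p 0.869), 0.57 in AD_TG against AD_B6 (SE 0.54; adjusted p 0.895) and -0.36 in AD_TG against SJL_B6 (SE 0.54; adjusted p 0.999). Leaving out 1 library gave -1.28 to -0.68 in the first of these, 0.32 (without AD_B6 replicate 4) to 0.92 (without AD_B6 replicate 3) in the second and -0.59 (without AD_TG replicate 3) to -0.12 (without SJL_B6 replicate 2) in the last.

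Adgre1, an adhesion receptor used as a macrophage antigen in the mouse (chr17:57358691-57483527 of GRCm38, plus strand), had 8.74, 9.26, 10.19 and 6.25 in AD_TG, 9.01, 9.15, 8.70 and 8.62 in AD_B6, and 7.53, 9.20, 9.52 and 8.86 in SJL_B6. The AD_B6 libraries were close together and AD_TG held both the highest and the lowest of the 12 values. It was the 1 gene of the 10 with a lower mean in AD_TG than in AD_B6, by -0.26 (SE 0.82; limma adjusted p 0.982), and that sign turned to 0.53 without AD_TG replicate 4.

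Receptors that signal through TYROBP, and their partners, varied widely between libraries. Trem2, the lipid-sensing receptor, had 5.88, 7.89, 8.20 and 6.10 in AD_TG, 7.14, 8.56, 0.00 and 6.63 in AD_B6, and 8.05, 9.12, 4.19 and 8.19 in SJL_B6. Fcer1g, a related adaptor, averaged 10.18 ± 0.27 in AD_TG, 9.75 ± 0.66 in AD_B6 and 10.56 ± 0.61 in SJL_B6 (SD, n = 4). The kinase Syk, which docks on such adaptors, averaged 9.03 ± 0.93, 7.41 ± 2.17 and 9.07 ± 0.98 in the same order of groups. Of 10 genes on that list 6 were tested and 0 passed. In AD_B6 against SJL_B6 5 of the 6 were lower, in AD_TG against AD_B6 3 were higher and 3 lower, and in AD_TG against SJL_B6 5 were lower, beside 59.8% lower, 62.8% higher and 46.7% lower of all genes tested.

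Among the scavenger receptors, Mrc1 and Cd163 both spread widely within each group. Mrc1, the mannose receptor (chr2:14229392-14332057 of GRCm38, plus strand), had 11.73, 10.63, 12.03 and 11.30 in AD_TG, 10.60, 9.88, 12.51 and 10.72 in AD_B6, and 9.95, 11.74, 11.54 and 11.81 in SJL_B6. The lowest 2 of the 12 values came from an AD_B6 and a SJL_B6 library and the highest from AD_B6, so that the groups overlapped throughout. Mrc1 differed by 0.50 in AD_TG against AD_B6, -0.34 in AD_B6 against SJL_B6 and 0.16 in AD_TG against SJL_B6 (SE 0.51 each; limma adjusted p 0.906, 0.947 and 0.999). Leaving out 1 library gave 0.15 to 1.03, -0.86 to 0.013 and -0.27 to 0.43 in these comparisons, the ends of the first and second being without AD_B6 replicates 2 and 3. The value of 1.03, without replicate 3, had an unadjusted p of 0.0374 in limma.

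Cd163, the receptor for complexes of haptoglobin and haemoglobin (chr6:124304656-124330527 of GRCm38, plus strand), had 10.61, 7.88, 10.04 and 10.13 in AD_TG, 6.92, 9.38, 9.74 and 8.09 in AD_B6, and 8.93, 11.32, 9.63 and 9.52 in SJL_B6. In AD_TG 3 of the 4 libraries were above all of AD_B6, and replicate 2 was below 3 of them. The difference was 1.14 in AD_TG against AD_B6 (SE 0.76, a 2.20-fold higher amount; limma unadjusted p 0.146, adjusted p 0.871) and -1.32 in AD_B6 against SJL_B6 (SE 0.76, 2.49-fold lower; unadjusted p 0.0944, adjusted p 0.869). Without AD_B6 replicate 1 these were 0.60 and -0.78, the first was 1.73 without AD_TG replicate 2, and the second was -0.83 without SJL_B6 replicate 2. Leaving out 1 library at a time moved the second between -1.72 and -0.78. Between AD_TG and SJL_B6 it was -0.18 (SE 0.76; limma adjusted p 0.999).

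Cd68, a glycoprotein of the phagocyte lysosome (chr11:69664213-69666153 of GRCm38, minus strand), had the largest difference of the 10, and that difference rested on 1 library. It had 9.15, 10.07, 10.47 and 9.48 in AD_TG, 10.55, 4.21, 10.15 and 8.62 in AD_B6, and 9.61, 10.53, 10.14 and 9.96 in SJL_B6. The 4.21 of AD_B6 replicate 2 corresponded to 21 reads (95% Poisson interval 13 to 32, counting error only), the lowest number of reads of any of the 10 genes in any library, the next lowest being 42. The difference was 1.41 in AD_TG against AD_B6 (SE 0.92; limma adjusted p 0.871) and -1.68 in AD_B6 against SJL_B6 (SE 0.92; limma adjusted p 0.869). Without AD_B6 replicate 2 these values were 0.018 and -0.29. The difference in AD_TG against SJL_B6 was -0.27 (SE 0.92; limma adjusted p 0.999).

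Other lysosomal genes of phagocytes were measured beside Cd68. Of 13 such genes, 9 were higher in AD_TG than in AD_B6, 8 were lower in AD_B6 than in SJL_B6 and 9 were higher in AD_TG than in SJL_B6, with median differences of 0.26, -0.15 and 0.11. The medians of all genes tested were 0.41, -0.31 and 0.084. Ctsb, a cysteine cathepsin, averaged 12.60 ± 0.20 in AD_TG, 12.23 ± 0.66 in AD_B6 and 12.49 ± 0.14 in SJL_B6. Ctsd, the aspartic cathepsin, averaged 11.95 ± 0.03, 12.06 ± 0.41 and 11.85 ± 0.85 in the same order (SD, n = 4). None of the 13 passed the adjusted threshold.

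Lyz2, the lysozyme of myeloid cells (chr10:117277331-117282321 of GRCm38, minus strand), had 10.94, 8.74, 11.02 and 10.79 in AD_TG, 11.20, 9.0, 11.39 and 9.91 in AD_B6, and 9.22, 11.68, 9.84 and 11.50 in SJL_B6. Each group held at least 2 libraries at 10.79 or above and at least 1 at 9.22 or below. Its means were 10.37 ± 1.09 in AD_TG, 10.37 ± 1.13 in AD_B6 and 10.56 ± 1.22 in SJL_B6 (SD, n = 4). The 95% interval of the difference between AD_TG and AD_B6 ran from -1.32 to 1.32. Its neighbour Lyz1, the lysozyme of intestinal Paneth cells, averaged 8.15 ± 0.91 in AD_TG, 8.43 ± 1.07 in AD_B6 and 7.99 ± 0.76 in SJL_B6. The 2 transcripts are 92.0% identical over their whole length and 93.8% over the last 300 bases, with a longest shared run of 104 bases there, and they are 86.5% identical over the last 100 bases, with a longest shared run of 28. How reads of these stretches were split between both genes is uncertain. The sum of both genes averaged 10.70 ± 0.94 in AD_TG, 10.73 ± 1.08 in AD_B6 and 10.80 ± 1.13 in SJL_B6.

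Pf4, a chemokine stored in platelets and also made by border macrophages in the mouse (chr5:90772435-90773383 of GRCm38, plus strand), had 11.36, 10.19, 11.42 and 12.41 in AD_TG, 10.74, 10.60, 11.48 and 10.72 in AD_B6, and 9.35, 11.05, 11.04 and 11.68 in SJL_B6. The groups overlapped, with the highest value in AD_TG and the lowest in SJL_B6. Its difference was 0.46 in AD_TG against AD_B6, 0.10 in AD_B6 against SJL_B6 and 0.56 in AD_TG against SJL_B6 (SE 0.49 each; limma adjusted p 0.913, 0.998 and 0.999). The first was 0.10 without AD_TG replicate 4 and 0.84 without AD_TG replicate 2, and the last was 0.21 and 0.95 without them and 0.086 without SJL_B6 replicate 1 and 0.86 without SJL_B6 replicate 4. The platelet markers were uneven. Ppbp, the other abundant platelet chemokine, had reads in 1 AD_TG, 2 AD_B6 and 0 SJL_B6 libraries, and Gp9, a subunit of the platelet receptor for von Willebrand factor, had reads in 0, 1 and 0. Gp1bb, another subunit of that receptor, had reads in 4 AD_TG, 3 AD_B6 and 4 SJL_B6 libraries and reached 8.50, and the integrin gene Itga2b had reads in 1, 1 and 4. The part of platelets in the Pf4 values was not tested. Pf4 had at least 550 reads in every library. The 8 platelet genes together took at most 0.0241% of the linear total, the value of AD_B6 replicate 4, in which Pf4 was at 10.72.

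Mrc1 was the closest of the 10 genes to both Lyz2 and Pf4 over the 12 libraries. These 3 genes were picked by that, and the DNA around their start sites, and that of Lyz1, is shown. Pearson's r was 0.77 between Lyz2 and Mrc1, the highest of the 45 pairs, and 0.71 between Pf4 and Mrc1. It was 0.75 between Tyrobp and Ms4a7, for which no window is printed. All genes of a library share its depth and composition, so these values are descriptions. The windows below, from RefSeq on GRCm38.p6, run from 250 bases before to 50 bases after the start site and are printed 5′ to 3′ on the gene's own strand. Capitals mark GGAAGT, or ACTTCC where it lies on the opposite strand, letters that ETS factors such as PU.1 can bind. In Pf4 they mark its longer form GAGGAAGT, which contains these letters. Other forms of ETS sites were not searched or marked.
Mrc1, chr2:14229164-14229463, plus strand: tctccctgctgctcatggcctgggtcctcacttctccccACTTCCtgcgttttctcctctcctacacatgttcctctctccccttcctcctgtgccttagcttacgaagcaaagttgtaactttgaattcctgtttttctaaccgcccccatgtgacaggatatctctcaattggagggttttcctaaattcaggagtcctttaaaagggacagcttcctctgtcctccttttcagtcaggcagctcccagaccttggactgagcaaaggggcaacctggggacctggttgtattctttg
Lyz2, chr10:117282223-117282522, minus strand: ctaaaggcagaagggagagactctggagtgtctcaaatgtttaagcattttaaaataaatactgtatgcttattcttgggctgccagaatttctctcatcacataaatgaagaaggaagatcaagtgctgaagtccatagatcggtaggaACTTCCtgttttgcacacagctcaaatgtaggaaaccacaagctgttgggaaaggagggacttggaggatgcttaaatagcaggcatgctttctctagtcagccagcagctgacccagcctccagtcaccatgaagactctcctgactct
Lyz1, chr10:117292819-117293118, minus strand: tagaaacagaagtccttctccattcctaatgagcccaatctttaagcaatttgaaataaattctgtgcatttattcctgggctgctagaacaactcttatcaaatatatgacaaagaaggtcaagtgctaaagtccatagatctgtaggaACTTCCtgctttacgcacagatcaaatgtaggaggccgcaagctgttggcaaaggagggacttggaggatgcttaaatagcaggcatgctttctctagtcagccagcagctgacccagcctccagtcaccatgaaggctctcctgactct
Pf4, chr5:90772185-90772484, plus strand: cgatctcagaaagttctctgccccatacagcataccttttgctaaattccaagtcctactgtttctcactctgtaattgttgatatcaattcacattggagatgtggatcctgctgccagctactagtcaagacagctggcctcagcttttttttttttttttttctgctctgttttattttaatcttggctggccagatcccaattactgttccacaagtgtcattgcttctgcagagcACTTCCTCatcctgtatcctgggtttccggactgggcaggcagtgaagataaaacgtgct
The 2 lysozyme windows are 82.5% identical and carry the motif at the same position. Windows of 7 of the 10 genes, 8 in all, were searched, and GGAAGT on either strand was in 5 of these windows (those of Mrc1, Lyz2, Pf4 and Cd68 and 1 of the 2 windows of Ms4a7), against 23.8% of 32851 windows of the same length in the table. GAGGAAGT was in 1 of them, against 3.20% of all windows. These matches describe letters, not binding.

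Aif1 and Ms4a7 had the lowest numbers of reads after that of Cd68 in AD_B6 replicate 2. Aif1, a calcium-binding protein that bundles actin in macrophages and microglia (chr17:35170991-35176068 of GRCm38, minus strand), had 9.38, 8.04, 7.07 and 8.89 in AD_TG, 6.91, 7.44, 9.40 and 7.23 in AD_B6, and 7.77, 8.32, 6.19 and 8.91 in SJL_B6. Each group ran over 2 log2 units or more. The differences of Aif1 were 0.60, -0.056 and 0.55 in AD_TG against AD_B6, AD_B6 against SJL_B6 and AD_TG against SJL_B6, each with an SE of 1.0, and their limma adjusted p were 0.948, 0.998 and 0.999. Leaving out 1 library gave 0.26 to 1.15, -0.61 to 0.31 and 0.012 to 0.97, the ends of the first being without AD_TG replicate 1 and AD_B6 replicate 3 and those of the last without SJL_B6 replicate 3 and AD_TG replicate 3.

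Ms4a7, a membrane protein with 4 spanning segments that separates border macrophages from microglia in the mouse (chr19:11321039-11336146 of GRCm38, minus strand), had 7.71, 8.74, 9.18 and 9.05 in AD_TG, 6.10, 9.43, 9.07 and 6.43 in AD_B6, and 8.68, 8.60, 8.04 and 9.24 in SJL_B6. The AD_B6 libraries split into a pair below 6.5 and a pair above 9, and the other groups stayed between 7.71 and 9.24. The difference was 0.91 in AD_TG against AD_B6 (SE 0.90; limma adjusted p 0.900), -0.89 in AD_B6 against SJL_B6 (SE 0.90; limma adjusted p 0.926) and 0.029 in AD_TG against SJL_B6 (SE 0.90; limma adjusted p 0.999). The first and second differences of Ms4a7 were 0.36 and -0.33 without AD_B6 replicate 1, 0.47 and -0.44 without replicate 4, and 1.47 and -1.44 without replicate 2.

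Set side by side, the 10 genes had a median difference of 0.53 in AD_TG against AD_B6, -0.55 in AD_B6 against SJL_B6 and -0.17 in AD_TG against SJL_B6. The medians of all genes tested were 0.41, -0.31 and 0.084, and 7, 4 and 3 of the 10 lay above them. Without AD_B6 replicate 2 the first and second medians of the 10 genes moved to 0.26 and -0.14. Then 8 of 10 were higher and 5 of 10 lower. The medians of all genes tested were 0.41 and -0.31 in that setting, and 4 and 6 of the 10 lay above them. Without AD_B6 replicate 3 the medians of the 10 were 0.97 and -0.83, when 9 of 10 were higher and 9 of 10 lower. Those of all genes tested were then 0.22 and -0.11, and 9 and 2 of the 10 lay above them. In AD_TG against SJL_B6 all 10 were lower with only the 7 libraries that list zeros, and 2 of 10 were lower with only the other 5 libraries. Each of the 5 also had fewer estimated reads than any of the 7, so listing and depth cannot be told apart. The 95% intervals extended 0.58 log2 units to either side of the difference for Csf1r and 2.06 for Aif1, so the precision differed widely between the genes.

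**Figure D2:**
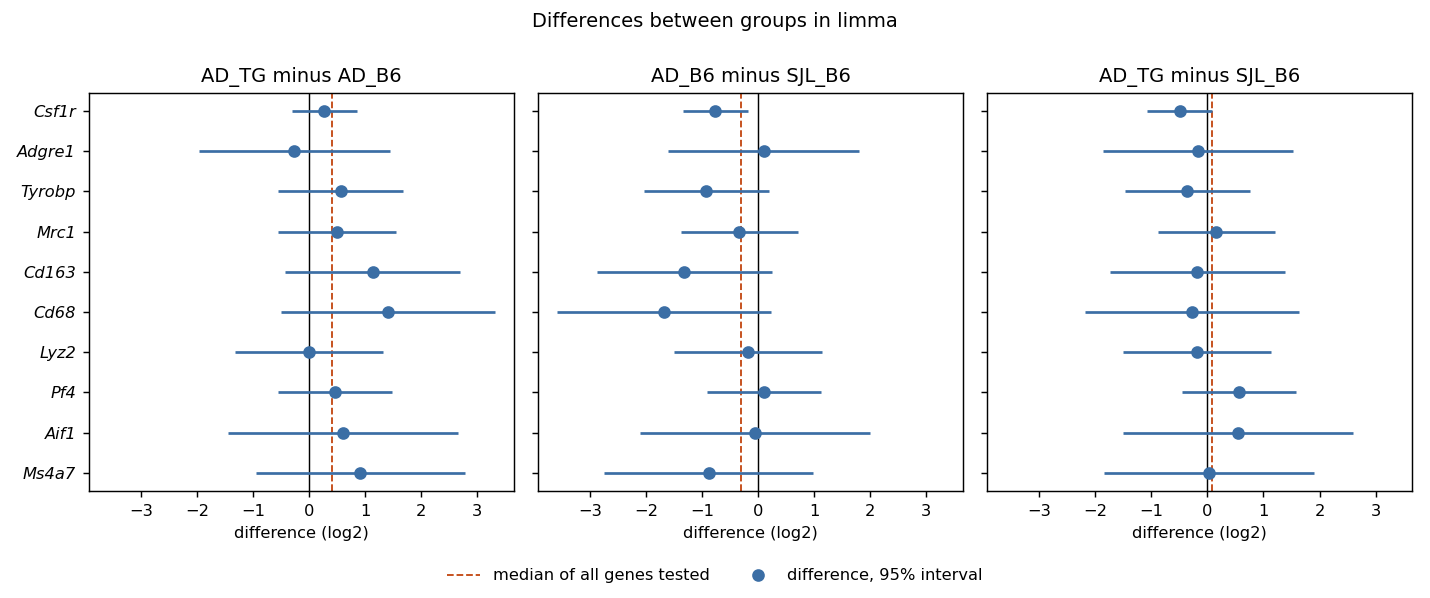
Difference between groups on the log2 scale (x axis) for each of the 10 genes, with 95% intervals from limma (12 libraries, 4 per group), in AD_TG minus AD_B6, AD_B6 minus SJL_B6 and AD_TG minus SJL_B6; the dashed line is the median of all 11955 genes tested. Every interval includes 0 except that of Csf1r in AD_B6 minus SJL_B6, which runs from -1.35 to -0.18 with a limma adjusted p of 0.869.

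Individual libraries set much of the spread. In AD_B6 replicate 4, 0 of the 10 genes were above their own median over the 12 libraries, and in AD_B6 replicate 2 only 2 were. AD_B6 replicate 3, by contrast, had 8 above and the highest Mrc1 and Aif1 values of all libraries. That library also had the fewest genes with reads, 8748, at an estimated 8905237 reads, and the highest share of fibroblast genes, 0.873%. AD_TG had 5, 4, 8 and 6 genes above their medians in replicates 1 to 4, AD_B6 had 4, 2, 8 and 0, and SJL_B6 had 2, 9, 5 and 7. SJL_B6 replicate 2, with 9 above, held the highest Cd163, Lyz2 and Tyrobp values and the highest share of the linear total, 0.384%. SJL_B6 replicate 1 had the highest Csf1r value but the lowest Pf4 value, and Csf1r made up 64.0% of the summed amount of the 10 genes there, against 22.2 to 44.6% in the other 11 libraries.

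**Figure D3:**
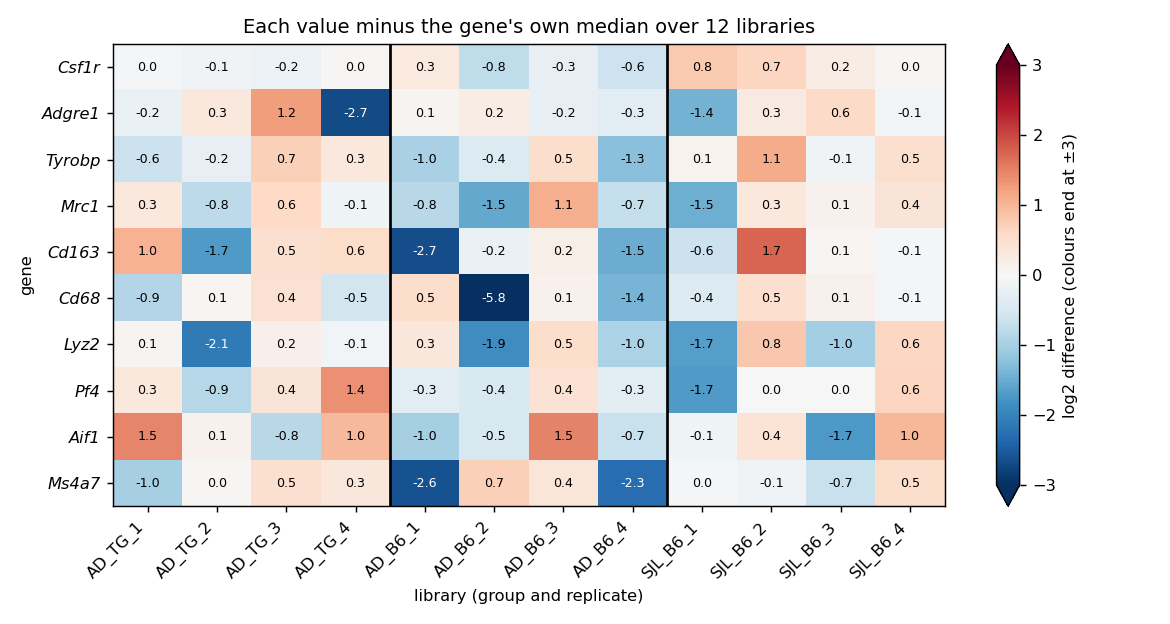
Each log2 value minus the gene's own median over the 12 libraries, by gene (rows) and library (columns, AD_TG, AD_B6 and SJL_B6 from left to right); colours end at 3 log2 units. AD_B6 replicate 4 lies below the median in all 10 genes and SJL_B6 replicate 2 above it in 9.

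The 10 genes did not vary as 1 block. Of their 45 pairs 36 had a positive r over the 12 libraries, with a median of 0.32 and a range from -0.43, between Aif1 and Adgre1, to 0.77. Mrc1 was closest to the mean of the other 9 (r = 0.86), followed by Tyrobp (0.76) and Lyz2 (0.67), whereas Csf1r had 0.26 and Adgre1 -0.081. Among 4940 other genes with reads in all 12 libraries, whose median r with the mean of the 10 was -0.0093, the 5 closest were H2-D1 (0.88), C1qb (0.88), Ccl8 (0.88), Arpc1b (0.86) and Litaf (0.84). C1qb averaged 11.36 ± 0.29 in AD_TG, 10.71 ± 0.90 in AD_B6 and 11.72 ± 0.43 in SJL_B6 (SD, n = 4). Ccl8, a chemokine, averaged 9.30 ± 0.54, 8.48 ± 1.30 and 9.42 ± 1.04 in the same order. The 5 genes were picked by their likeness to the 10 over these same libraries, so their group means are not independent of those of the 10.

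Further genes carried by border macrophages had reads as well, 20 to 24 of them in each library. Of a list of 26 such companions 25 were measured and 23 tested, and together they took 0.576 to 1.08% of the linear total over the 12 libraries. Their means were higher in AD_TG than in AD_B6 for 22 of 23 (62.8% of all genes tested), lower in AD_B6 than in SJL_B6 for 20 of 23 (59.8%) and lower in AD_TG than in SJL_B6 for 12 of 23 (46.7%), and 0 passed the adjusted threshold in limma. The median differences were 0.60, -0.70 and -0.059, and leaving out 1 library at a time left 20 to 23 higher in the first comparison and 18 to 21 lower in the second. The medians of all genes tested were 0.41 and -0.31 in the first and second comparisons. Of the 23 companions, 15 lay above the first of these and 15 below the second. Without AD_B6 replicate 2 the medians of the companions were 0.34 and -0.25, beside 0.41 and -0.31 for all genes tested. Then 10 of 23 lay above the first median of all genes and 11 of 23 below the second. The 3 highest companions were Apoe, Gas6 and C1qa, which weigh most in the summed share. Apoe ran from 13.53 to 14.63 over the 12 libraries and Gas6 from 12.26 to 13.84. In AD_B6 against SJL_B6 Gas6 was higher, by 0.35, and Apoe and C1qa were lower, by -0.19 and -0.70. Which cells gave the Apoe and Gas6 reads was not tested, so the share is not a measure of macrophage RNA alone.

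Cbr2, a carbonyl reductase carried by border macrophages in the mouse, had the lowest mean in AD_B6. It averaged 10.14 ± 0.43 in AD_TG, 9.80 ± 0.46 in AD_B6 and 11.11 ± 0.62 in SJL_B6 (SD, n = 4). F13a1, the coagulation factor subunit made by tissue macrophages, averaged 10.42 ± 0.28, 10.20 ± 0.83 and 10.78 ± 0.49 in the same order. Folr2, a folate receptor of resident macrophages, had reads in 4 AD_TG, 3 AD_B6 and 4 SJL_B6 libraries. At an unadjusted p below 0.05 in limma, Dab2, Cd14 and Tgfbi were higher in AD_TG than in AD_B6, by 0.84, 3.70 and 1.97 (adjusted p 0.871 each), where 4.34% of all genes tested were so. In the same way Cbr2, Clec10a and C1qb were lower in AD_B6 than in SJL_B6, by -1.31, -1.18 and -1.0 (limma adjusted p 0.869 each), where 4.05% of all genes were so. These 6 were named after their values were seen, except Cbr2, which defines the list, and C1qb.

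Markers of other cells that carry some of the 10 genes were also read. Microglia share Csf1r, Aif1, Tyrobp and Adgre1, and their marker P2ry12, a purinergic receptor, had reads in 4 AD_TG, 3 AD_B6 and 1 SJL_B6 libraries. Tmem119, another microglial marker in the brain, averaged 7.23 ± 2.48 in AD_TG, 8.63 ± 1.47 in AD_B6 and 9.35 ± 1.23 in SJL_B6 (SD, n = 4). Sall1 and Cx3cr1, on the same list, had reads in all 12 libraries. Sall1 averaged 8.07 ± 0.42, 8.54 ± 1.46 and 8.80 ± 0.49 in the same order, and Cx3cr1 9.98 ± 0.70, 9.26 ± 1.04 and 10.10 ± 0.57. The 9 microglial genes together took 0.0320 to 0.0523% of the linear total in AD_TG, 0.0308 to 0.0837% in AD_B6 and 0.0433 to 0.0593% in SJL_B6, and their part in the values of the 10 genes was not tested. Of the 8 tested, 4 were higher in AD_TG than in AD_B6 and 5 were lower in AD_B6 than in SJL_B6.

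Monocytes and neutrophils carry Lyz2 and Tyrobp. Ly6c2, a monocyte marker, had reads in 2 AD_TG, 3 AD_B6 and 1 SJL_B6 libraries. Ccr2, another, had reads in all 12 and averaged 8.69 ± 0.96 in AD_TG, 7.98 ± 1.82 in AD_B6 and 8.68 ± 0.54 in SJL_B6. Ly6c2 and Ccr2 differed by -3.65 and 0.71 in AD_TG against AD_B6. In AD_B6 against SJL_B6 they differed by 3.46 and -0.70, again with opposite signs. The 7 monocyte genes took 0.0248 to 0.0473% of the linear total in AD_TG, 0.0115 to 0.139% in AD_B6 and 0.0194 to 0.0586% in SJL_B6. The 0.139% was that of AD_B6 replicate 3, which also had the highest share of fibroblast genes, 0.873%. Fn1, the highest gene of the monocyte list, was at 12.59 there and at 8.92 to 10.36 in the other AD_B6 libraries. Which cells gave the Fn1 reads was not tested. S100a9, an abundant neutrophil protein, averaged 10.43 ± 1.84 in AD_TG, 11.18 ± 1.02 in AD_B6 and 9.20 ± 1.80 in SJL_B6 (SD, n = 4). S100a8, the other defining gene of that list, averaged 8.22 ± 5.68, 10.96 ± 2.32 and 9.81 ± 1.68 in the same order, with 0 in AD_TG replicate 4. The 10 neutrophil genes measured took 0.0123 to 0.313% in AD_TG, 0.0246 to 0.318% in AD_B6 and 0.00932 to 0.102% in SJL_B6. In AD_B6 against SJL_B6 8 of the 9 tested neutrophil genes were higher, against 40.2% of all genes, where 8 of the 10 macrophage genes were lower. The part of these cells in the values of Lyz2 and Tyrobp was not tested.

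Antigen-presenting genes had reads in all 12 libraries. The class II genes H2-Aa, H2-Eb1 and Cd74 averaged 14.05 ± 0.38, 14.13 ± 0.43 and 12.82 ± 0.16 in AD_TG, 13.69 ± 0.24, 13.80 ± 0.33 and 12.34 ± 0.32 in AD_B6, and 14.30 ± 0.56, 14.25 ± 0.82 and 13.26 ± 0.78 in SJL_B6 (SD, n = 4). Of 8 dendritic cell and class II genes tested, 8 were higher in AD_TG than in AD_B6 (62.8% of all genes tested) and 5 were lower in AD_B6 than in SJL_B6 (59.8%), with 0 past the adjusted threshold. The medians of all genes tested were 0.41 and -0.31 there, and 5 of the 8 lay above the first and 5 below the second. In AD_B6 against SJL_B6, Cd74, H2-Aa and H2-Ab1 were lower at an unadjusted p below 0.05 in limma, by -0.91, -0.61 and -0.82 (adjusted p 0.869 each), as were 4.05% of all genes, and H2-Ab1 was named after its value was seen. Flt3, a dendritic cell receptor, had reads in 3 AD_TG, 1 AD_B6 and 3 SJL_B6 libraries, and Zbtb46, the transcription factor of conventional dendritic cells, in 0, 0 and 1.

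Choroid plexus and fibroblast genes, which mark other cell types, varied between libraries. Choroid plexus genes led by Ttr took 1.99 to 8.15% of the linear total in AD_TG, 0.383 to 11.1% in AD_B6 and 0.292 to 6.51% in SJL_B6. Fibroblast genes took 0.113 to 0.665%, 0.175 to 0.873% and 0.176 to 0.450% in the same order. The mean log2 value of the fibroblast genes was lowest in AD_B6 replicate 2, 6.50, and highest in AD_B6 replicate 3, 10.38. That of the 10 macrophage genes was 9.04, its lowest, and 10.52 in these libraries. Its highest, 10.67, was in SJL_B6 replicate 2, where the fibroblast genes had 8.97. Whether the 10 genes follow the fibroblast content of a library was not tested. Rescaling each library to its total without Rn45s and the choroid plexus genes left 8 of 10 higher in AD_TG than in AD_B6 and a median difference of 0.51.

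**Figure D4:**
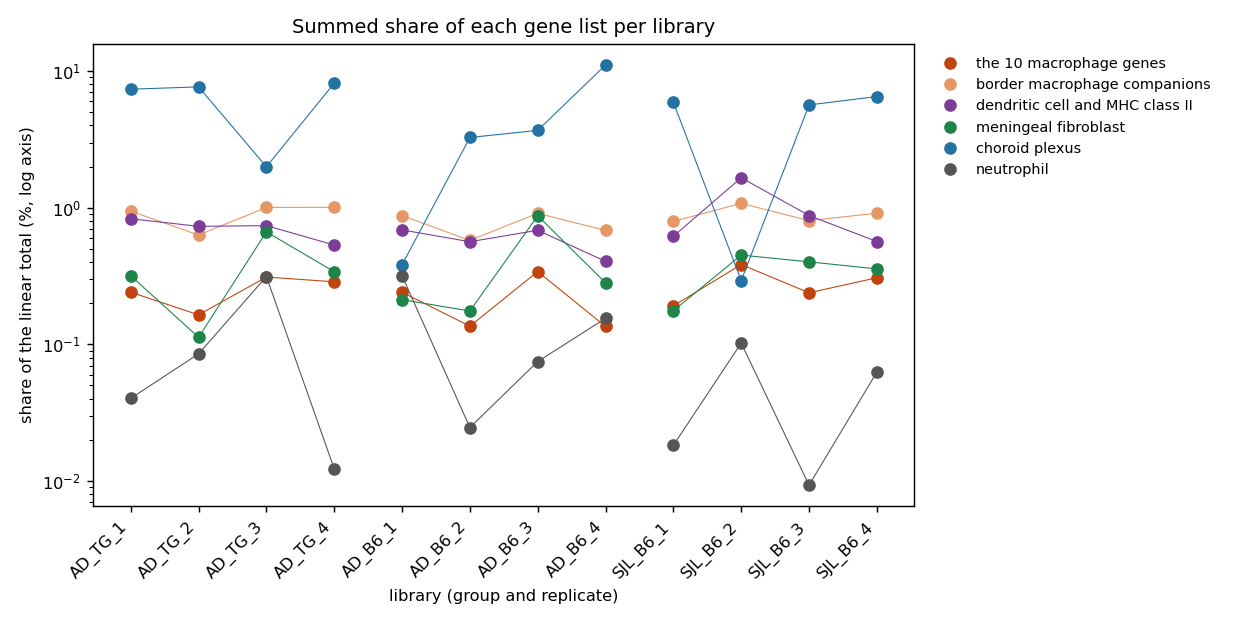
Share of each library's linear total (%, log axis) taken by the 10 macrophage genes, their companions and 4 other lists, by library in the order AD_TG, AD_B6, SJL_B6; lines join libraries of 1 group only to guide the eye. The 10 genes stay between 0.135 and 0.384%, while choroid plexus genes run from 0.292 to 11.1%.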

How the data were processed

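The members and gene lists were chosen with earlier results of these data known. Each of the 12 deposited files gave log2 values by symbol, as log2(x + 1) of scaled amounts; the scaling is not given in the sources used here. Per the labels, 500 ng of total RNA entered Lexogen QuantSeq libraries, which read transcripts near their ends. Bowtie2, bedtools and the human build hg19 are named in the submitters' processing notes, although the symbols are those of the mouse, and no coordinate of the files was used. Of 23282 entries per file, 44 repeats of a symbol were left out, keeping the entry with the highest mean.

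The value of 1 read in each library was estimated from the even steps of the low linear values, 0.698 to 1.75, of which 90.7 to 100% lay within 0.15 of a whole number. A gene had reads at a linear value of 0.3 or more. Counting intervals cover counting error only, and the reads are not known to be independent molecules.

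Genes with a linear value of 10 or more in at least 4 libraries were tested on the deposited log2 values with limma 3.58.1 in R 4.3.3 (lmFit, eBayes with trend; all 12 libraries, 3 contrasts, two-sided, Benjamini-Hochberg, threshold 0.05). The fit was also run on these values shuffled within each gene, with known shifts added to some genes. Shuffling does not keep the correlation between genes, and the outcome is not given here. The genes named were the 10 members and Lyz1, the defining genes and 3 highest genes of each list, and the 5 genes closest to the mean of the members; others are named as chosen after their values were seen, and 1 gene is not reported here. Gene positions come from GENCODE and promoter windows from RefSeq, both on GRCm38. Alternatives were the pseudocount (10), the filter, the scaling, the samples in the fit, a replicate block, library weights, voom on recovered reads and leaving out each library. The planned check of the order of the 10 genes by level was not run.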

Additional observations from a re-analysis of the deposited data

Results flagged for a closer look

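In 3 of the 30 combinations of the 10 genes and 3 groups, 1 library lay far from the other 3 of its group, by a gap to the nearest library, as a part of the group's whole range, above Dixon's 95% critical value for 4 samples. Chance alone does so in about 1 of 20. The lowest Lyz2 value of AD_TG, 8.74 in replicate 2, had a gap of 0.901 of the range. The highest Pf4 value of AD_B6, 11.48 in replicate 3, had a gap of 0.838. The lowest Mrc1 value of SJL_B6, 9.95 in replicate 1, had a gap of 0.853.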

How the results depend on the processing

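None of the 10 genes reached an adjusted p below 0.05 under any alternative, the lowest being 0.511 for Csf1r by voom in AD_B6 against SJL_B6. Of all genes, voom on recovered reads called 1 in that comparison (Dgcr8, adjusted p 0.0429, against 0.869 in limma), and no other alternative called any. Leaving out 1 library at a time kept the sign of 74 of 80 values in AD_TG against AD_B6, 68 of 80 in AD_B6 against SJL_B6 and 68 of 80 in AD_TG against SJL_B6. Where the sign turned, the values ran, in AD_TG against AD_B6, from -0.46 to 0.54 for Lyz2 and -0.79 to 0.53 for Adgre1; in AD_B6 against SJL_B6, from -0.86 to 0.013 for Mrc1, -0.63 to 0.27 for Lyz2, -0.32 to 0.34 for Adgre1, -0.37 to 0.40 for Pf4 and -0.61 to 0.31 for Aif1; and in AD_TG against SJL_B6, from -0.27 to 0.43 for Mrc1, -0.49 to 0.42 for Cd163, -0.63 to 0.36 for Lyz2, -0.69 to 0.62 for Adgre1 and -0.17 to 0.35 for Ms4a7.

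In 5 libraries genes without reads are listed at small values above 0 and in the other 7 at 0, an alternative chosen after seeing the data. Each of the 5 held fewer estimated reads than any of the 7, so the way of listing and depth cannot be told apart. With only the libraries listing zeros, the reversed differences were, in AD_TG against AD_B6, -0.026 for Mrc1 and -0.76 for Lyz2; in AD_B6 against SJL_B6, -0.075 for Adgre1 and -0.43 for Pf4; and in AD_TG against SJL_B6, -0.81 for Mrc1, -0.067 for Pf4, -0.15 for Aif1 and -0.024 for Ms4a7. With only the other libraries, where AD_B6 has 1 library assumed to vary like the rest, they were 0.84 for Adgre1 in AD_TG against AD_B6; 0.38 for Lyz2 and 0.25 for Aif1 in AD_B6 against SJL_B6; and 1.05 for Cd163, 1.45 for Lyz2, 0.94 for Adgre1 and 0.038 for Tyrobp in AD_TG against SJL_B6. In AD_TG against SJL_B6 all 10 genes were lower with the libraries listing zeros and 8 of 10 higher with the others. The way of listing as a covariate gave -0.0094 for Pf4 in AD_B6 against SJL_B6. Voom gave -0.29 for Lyz2 in AD_TG against AD_B6 and -0.015 for Mrc1 in AD_TG against SJL_B6, library weights -0.016 for Pf4 and quantile normalization 0.20 for Aif1, both in AD_B6 against SJL_B6, and for Lyz2 in AD_TG against AD_B6 the sum of Lyz1 and Lyz2 gave -0.034 and rescaling without Rn45s and the choroid plexus genes -0.019, beside a main value of 0.00075. The cause of these changes was not tested.

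Quantile normalization moved the median of all genes from 0.41 to 0.083 in AD_TG against AD_B6 and from -0.31 to -0.064 in AD_B6 against SJL_B6, and the share of higher genes among those at an unadjusted p below 0.05 from 81.2 to 57.9% and from 25.2 to 40.6%. Relative to the median of all genes, 8 of the 10 were then higher in the first comparison and 7 lower in the second. In AD_TG against SJL_B6 the number of genes at an unadjusted p below 0.05, 357, became 578 without a filter, 230 with a filter of 50 in 6 libraries and 566 with library weights. In AD_B6 against SJL_B6 647 became 405 with only the libraries listing zeros, and the lower ones among them, 484, became 211 with those and 801 with only the other libraries. In AD_TG against AD_B6 the higher ones, 519, became 305 with quantile normalization and 275 with only the libraries listing zeros. Over all genes tested, the deviations of libraries of the same number from their group means had r of -0.015 to 0.067. Such values cannot exclude a shared preparation, so whether the numbers pair libraries is not known. The limma fit with the replicate block called 0 genes and gave 685, 685 and 376 at an unadjusted p below 0.05. The lowest number of reads behind a value of the 10 genes was 21.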
